A study of Mus musculus with 13 samples.

Results

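Purine synthesis genes were followed in bulk RNA of mouse MP EPO-GEMM tumors and normal ovaries. The 10 genes were taken by symbol from the deposited table of 53465 genes: Prps1, Ppat, Gart, Pfas, Paics, Adsl, Atic, Impdh1, Impdh2 and Gmps. Each had 1 row, and all 10 passed the filter on low values (3 or more libraries with a TPM of 1 or above), which 17277 genes passed. TPM (transcripts per 1000000) divides reads by gene length and scales each library to the same total, so levels of different genes can be compared. The MP tumors (n = 10) carried the genotype Myc;p53-/- and were not treated. They grew in female C57BL/6 mice whose ovary had been electroporated at 8 to 12 wk of age with a Cas9 and Trp53 sgRNA vector, a MYC transposon and the Sleeping Beauty transposase, and whole tumors were taken at end point. Electroporation did not select a cell type, and the tumors were described by the study as oligoclonal. The controls were normal ovaries (n = 3) of wild-type (WT) C57BL/6 animals without treatment, which carried none of these vectors. The labels give the same age range for all samples. In the paper that range is the age at electroporation, so mice were older when their tumors were taken. Each library came from whole tissue, so fewer cells of a type and less RNA per cell cannot be told apart.

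De novo purine synthesis builds the purine ring on ribose phosphate. Prps1 makes the activated ribose PRPP, Ppat commits it to the pathway, and Gart, Pfas, Paics, Adsl and Atic carry the growing ring to inosine monophosphate (IMP), using formyl groups from folate at the steps of Gart and Atic. IMP is then turned into AMP, again with Adsl, or into GMP by Impdh1 or Impdh2 followed by Gmps. Dividing cells draw on this route for DNA and RNA, normal tissues rely more on salvage of preformed bases, and MYC is known to bind and raise many of these genes.

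Reads per gene were worked back from TPM and gene length, and came to between 31445004 and 64013840 per WT ovary and between 3892690 and 19906507 per MP tumor. The smallest count of reads behind any value of the 10 genes was 152, for Impdh1 in MP tumor 2. Library names carry 3 numbers of unstated meaning: the 3 WT ovaries share theirs with MP tumors 1, 2 and 3, and MP tumors 4 to 10 carry the other two, with no WT ovary among them. In MP tumor 2, 10 genes took 55.1% of the TPM, against at most 11.6% in a WT ovary. The targeted gene Trp53 was between 80.7 and 85.4 TPM in WT ovaries and below each of them in 9 tumors, while the library labelled MP tumor 10 had 187 TPM. Granulosa, theca and luteal markers summed to between 28249 and 34120 TPM in WT ovaries and between 11.9 and 2269 TPM in MP tumors. The 9 epithelial markers summed to between 289 and 320 TPM in WT ovaries and between 8.28 and 1201 TPM in MP tumors, with a median of 0 for Pax8, and 4 of the 8 tested fell, beside 14.3% of all tested genes. With WT ovary 1, 2 or 3 left out, 2 of the 8 fell, Cdh1 and Epcam, beside 3.61%, 4.05% and 4.06% of tested genes. How far these differences in tissue make-up enter the comparisons below was not tested.

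In TPM as deposited, Prps1, Adsl and Impdh2 rose in MP tumors, and the other 7 genes did not pass the test. The 3 of 10 (adjusted P under 0.05 from limma on log2(TPM + 1), with Benjamini-Hochberg adjustment over all tested genes) stood against 2.51% of tested genes called higher. None of the 10 fell, where 14.3% of tested genes were called lower. At an unadjusted limma P under 0.05, 5 of the 10 were higher and 0 lower, beside 5.63% and 27.4% of tested genes, and limma-voom on recovered reads also called 0 lower (23.4% of tested genes). In 4 genes (Prps1, Paics, Adsl and Impdh2) every MP tumor was above every WT ovary, a pattern seen in 3.02% of tested genes. The median log2 fold change was 0.82 over the 10 genes and -0.58 over all tested genes, and each of the 10 lay above the latter. All 3 calls were lost when WT ovary 1 or WT ovary 3 was left out, with limma adjusted P values from 0.0551 to 0.145; 0.479% and 0.387% of tested genes were then called higher, and 5 and 4 of the 10 were higher at an unadjusted P under 0.05, beside 3.89% and 3.33% of tested genes. Impdh2 was also lost without WT ovary 2 (limma adjusted P = 0.109). Without MP tumor 2, Gart and Paics joined the 3 (3.71% of tested genes called higher), and they did so too without MP tumors 2 and 10 (4.03%).

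**Figure D1:**
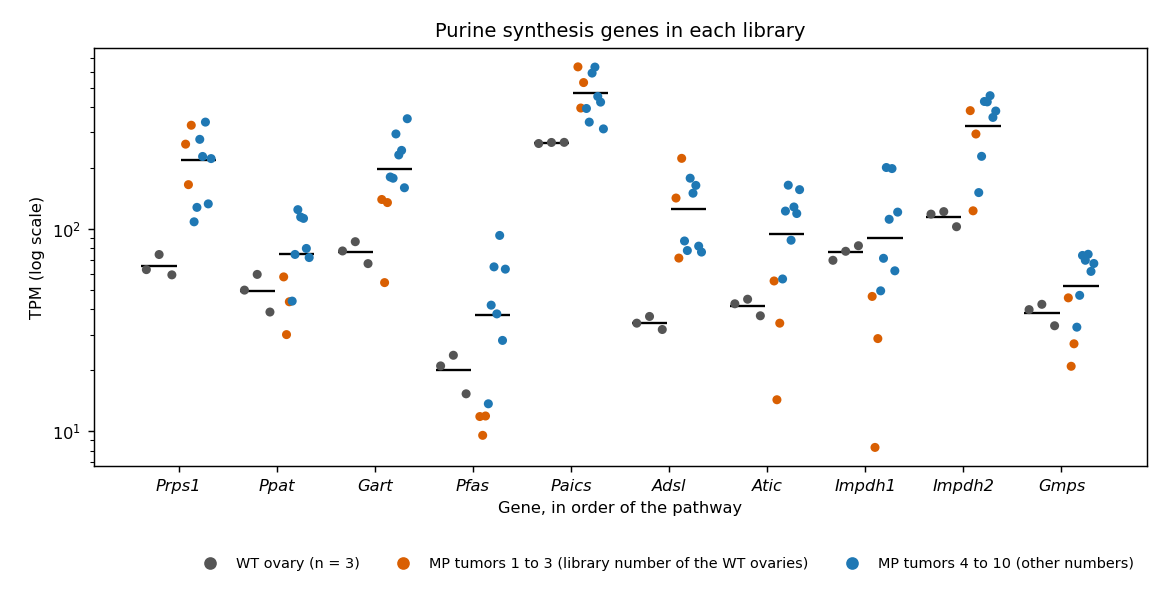
TPM (log axis) of the 10 purine synthesis genes in each library, with WT ovaries at the left and MP tumors at the right of each gene, 1 point per library and a line at the group mean. Prps1, Paics, Adsl and Impdh2 show no overlap between groups, and MP tumors 1 to 3 (orange) hold the 3 lowest tumor values of Gart, Pfas, Atic and Impdh1.

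In WT ovaries Paics was highest at 266 ± 1.94 TPM (SD, n = 3), followed by Impdh2 at 114 ± 10.3 TPM, and Pfas was lowest, between 15.3 and 23.7 TPM. Those 3 stood clear of their neighbours in the order, whereas from Gart down to Adsl each gene overlapped the next in its range. In MP tumors Paics was again highest at 469.6 ± 119 TPM (SD, n = 10) and Pfas lowest at 37.6 ± 28.4 TPM, and every neighbouring pair overlapped. Impdh2 kept rank 2, Prps1 moved from rank 5 to rank 3 and Adsl from rank 9 to rank 5, and Impdh1 went from rank 4 to rank 7. These are ranks of means, and within tumors Prps1 was above Gart, the next gene, in 4 of 10, and Impdh1 above Ppat in 4 of 10. The ranks also rest on the deposited gene lengths. That of Gart, 3992 bases, is below its 5144 merged exon bases in GENCODE M21, and a longer length would lower its TPM.

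Prps1 (phosphoribosyl pyrophosphate synthetase, which supplies PRPP; ENSMUSG00000031432, chromosome X, from 140456613 to 140476140, GRCm38) was at 62.9, 74.7 and 59.2 TPM in WT ovaries 1, 2 and 3. Across the MP tumors it ran from 108 TPM in MP tumor 4 through a median of 225 TPM to 337 TPM in MP tumor 8, so the groups did not overlap. The log2 fold change was 1.63 (SE, standard error, 0.37, limma adjusted P = 0.00719). Against MP tumors 1 to 3 alone, which share the library number of the WT ovaries, it was 1.87 (limma adjusted P = 0.00227).

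Ppat (the amidotransferase of the committed step; chromosome 5, from 76913249 to 76951578) was at 49.8, 59.5 and 38.8 TPM in the WT ovaries. The MP tumors ran from 30.0 TPM in MP tumor 2 through a median of 73.4 TPM to 124 TPM in MP tumor 6. Of the tumors, 6 were above every WT ovary and 1 was below, and the log2 fold change of 0.49 (SE 0.42) did not pass the test (limma adjusted P = 0.419). An antisense gene, 2310040G07Rik, overlaps 19391 bases of the span of Ppat, introns included, and the sources used here do not state that counting used strand.

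Gart (which joins glycine, adds a formyl group and closes the first ring; chromosome 16, from 91621186 to 91646952) was at 77.8, 86.4 and 67.3 TPM in the WT ovaries. Values in MP tumors ran from 54.2 TPM in MP tumor 2 through a median of 179 TPM to 350.5 TPM in the library labelled MP tumor 10, and 9 of 10 tumors were above every WT ovary. The log2 fold change was 1.20 (SE 0.44, limma adjusted P = 0.0713). Without MP tumor 2 it was 1.39 and passed (limma adjusted P = 0.00721), and against MP tumors 1 to 3 alone it was 0.39. The antisense gene Gm15964 overlaps 2676 bases of the span of Gart, with the same limit.

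Pfas (which adds an amino group from glutamine) lies on chromosome 11 from 68985697 to 69008460, with 571899 bases between it and Trp53. It was at 21.01, 23.7 and 15.3 TPM in the WT ovaries and ran from 9.53 TPM in MP tumor 2 through a median of 33.03 TPM to 92.8 TPM in MP tumor 8. MP tumors 1, 2, 3 and 4 were below every WT ovary and the other 6 were above, and the log2 fold change of 0.51 (SE 0.65) did not pass the test (limma adjusted P = 0.588).

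Paics (which carboxylates the ring and adds aspartate; chromosome 5, from 76951307 to 76967509) was at 264, 267 and 268 TPM in the WT ovaries. Tumor values ran from 312 TPM in the library labelled MP tumor 10 through a median of 437 TPM to 632.5 TPM in MP tumor 1. All 10 tumors were above the WT ovaries. The log2 fold change of 0.77 (SE 0.27) was just short of the threshold (limma adjusted P = 0.0633). It passed when MP tumor 2, 5 or 10 was left out, with limma adjusted P values of 0.0462, 0.0459 and 0.0391.

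Adsl (adenylosuccinate lyase, which acts both on the way to IMP and from IMP to AMP; chromosome 15, from 80948490 to 80970947) showed the largest fold change of the 10 in this fit. It was at 34.2, 36.9 and 31.8 TPM in the WT ovaries, and in MP tumors ran from 71.7 TPM in MP tumor 2 through a median of 115 TPM to 223 TPM in MP tumor 3. The lowest tumor was thus above the highest ovary. The log2 fold change was 1.73 (SE 0.38, limma adjusted P = 0.00619), and against MP tumors 1 to 3 alone it was 1.91 (limma adjusted P = 0.00520). A processed pseudogene, Gm6612, overlaps 395 bases of the gene on the same strand.

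Atic (which adds the second formyl group and closes IMP; chromosome 1, from 71557150 to 71579631) was at 42.6, 44.9 and 37.2 TPM in the WT ovaries. In MP tumors it ran from 14.3 TPM in MP tumor 2 through a median of 103 TPM to 164 TPM in MP tumor 6, with 8 tumors above every WT ovary and 2 below. The log2 fold change of 0.87 (SE 0.60) did not pass the test (limma adjusted P = 0.321).

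Impdh1 and Impdh2 encode the IMP dehydrogenases, the entry to GMP, and they did not move alike. Impdh2 (chromosome 9, from 108560286 to 108565584), known as the form raised in dividing cells, was at 118, 122 and 102 TPM in the WT ovaries. In MP tumors it ran from 123 TPM in MP tumor 2 through a median of 369 TPM to 456 TPM in MP tumor 8, its log2 fold change being 1.38 (SE 0.39, limma adjusted P = 0.0272). MP tumor 2, at 123 TPM, was only just above WT ovary 2, at 122 TPM. Impdh1 (chromosome 6, from 29200434 to 29216364) was at 69.9, 77.5 and 82.5 TPM in the WT ovaries. In TPM as deposited it had the widest spread of the 10 among MP tumors, from 8.30 TPM in MP tumor 2 through a median of 66.8 TPM to 201 TPM in MP tumor 6, a span of 24.2-fold. After median-of-ratios scaling its SD over tumors on the log2 scale, 0.89, was below those of Prps1 and Adsl, both 1.01, and Paics, 0.90. Of the tumors, 5 were below every WT ovary and 4 above, and the log2 fold change was -0.22 (SE 0.72, limma adjusted P = 0.844). A processed pseudogene named Impdh2-ps is annotated, and reads shared with it could have been lost or split.

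Gmps (GMP synthetase, the last step to GMP; chromosome 3, from 63976106 to 64022579) was at 39.9, 42.4 and 33.2 TPM in the WT ovaries. In MP tumors it ran from 20.9 TPM in MP tumor 2 through a median of 54.3 TPM to 74.9 TPM in MP tumor 8. It was above every WT ovary in 7 tumors and below in 3, and the log2 fold change of 0.32 (SE 0.41) did not pass the test (limma adjusted P = 0.593).

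**Figure D2:**
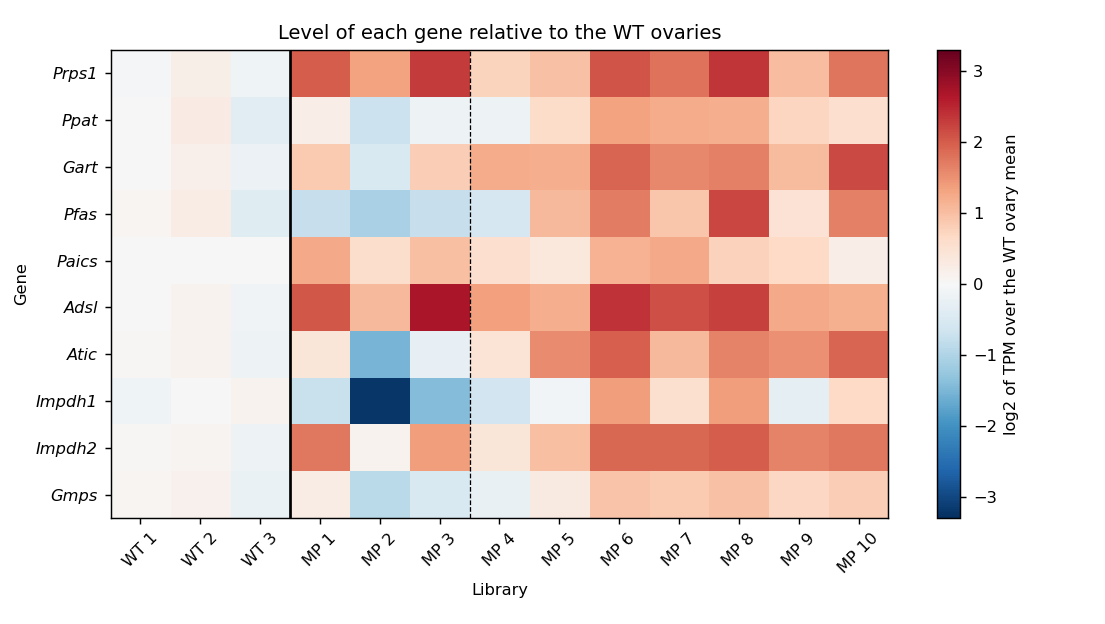
Each gene in each library as log2 of its TPM over the mean of the WT ovaries, red for higher and blue for lower; the solid line parts WT ovaries from MP tumors, and the dashed line parts MP tumors 1 to 3 from 4 to 10. MP tumors 6, 7, 8 and 10 are red throughout, and Impdh1 in MP tumor 2 is the deepest blue.

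The tumors differed in how much of the pathway stood above normal ovary. In MP tumors 6, 7 and 8 and the library labelled MP tumor 10, all 10 genes were above every WT ovary. Of all tested genes, 30.5%, 26.7%, 33.7% and 42.7% were above in these 4 libraries. MP tumors 5 and 9 had 9 of 10 genes above, the exception being Impdh1 in both, where 37.6% and 43.9% of tested genes were above. MP tumor 1 had 7 genes above (24% of tested genes), MP tumor 4 had 6 (25%) and MP tumor 3 had 5 (20.6%). MP tumor 2 was the lowest of the tumors for 8 of the 10 genes, with 4 above every WT ovary (11.6% of tested genes) and 6 below (80.9% of tested genes). Summed over the 10 genes, WT ovaries held between 736 and 835 TPM, MP tumor 2 held 893 TPM, and MP tumor 6 held the most at 2394 TPM. These differences between tumors rested on the scaling. After median-of-ratios scaling, which brings the typical gene to a common level, MP tumor 2 had 9 genes above every WT ovary and Impdh1 alone below, and every tumor had between 8 and 10 above, where between 40.2% and 43.9% of tested genes were. The scaled sums were between 501 and 561 TPM in WT ovaries, 2752 TPM in MP tumor 2, highest in MP tumor 3 at 3239 TPM and lowest among tumors in MP tumor 5 at 937 TPM.

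How libraries were scaled to each other changed the number of genes called. Median-of-ratios scaling moved the median over all tested genes to -0.02. Under it 7 of the 10 genes rose (7.37% of tested genes were called higher). Gart rose on the log2 scale by 1.91 (limma adjusted P = 0.000671), Atic 1.56 (limma adjusted P = 0.00371) and Gmps 1.02 (limma adjusted P = 0.0243). On this scale every MP tumor was above every WT ovary in 8 of the 10 genes, all but Pfas and Impdh1, against 9.45% of tested genes. Paics (limma adjusted P = 0.0588) and Pfas (limma adjusted P = 0.0773) did not pass. Impdh1 turned direction to 0.48 (limma adjusted P = 0.519), and it did not pass under median-of-ratios, quantile, length or limma-voom scaling. limma-voom on the recovered reads called 5 of the 10 higher (10.9% of tested genes), adding Gart and Paics. Quantile normalization (11% of tested genes called higher) and removal of each library's trend with gene length (10.4%) each called 9 of the 10, all but Impdh1.

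**Figure D3:**
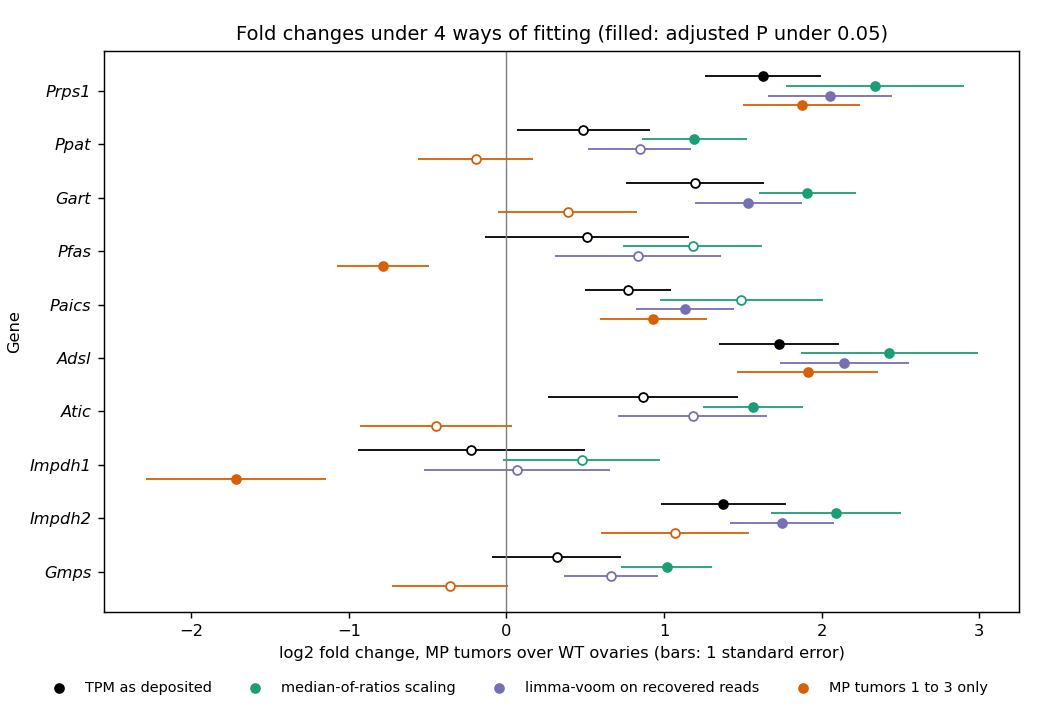
log2 fold change of MP tumors over WT ovaries for each gene, with bars of 1 standard error, from TPM as deposited, with median-of-ratios scaling, from limma-voom on recovered reads, and from MP tumors 1 to 3 only; filled points have an adjusted P under 0.05. Prps1 and Adsl are filled under all 4, and Impdh1 is open in all but the last, where it lies at -1.72.

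Among the libraries that share the number of the WT ovaries, where MP tumors 1 to 3 were set against the 3 WT ovaries, the pathway split. Prps1, Adsl and Paics (log2 fold change 0.93, limma adjusted P = 0.0370) were higher, 3 of 10, where 6.84% of tested genes were called higher. Pfas fell by 0.78 on the log2 scale (limma adjusted P = 0.0410) and Impdh1 fell by 1.72 (limma adjusted P = 0.0263), where 62.4% of tested genes were called lower and the median over tested genes was -1.44. Impdh2 was at 1.07 and no longer passed (limma adjusted P = 0.0714). Ppat, Atic and Gmps had negative values there (-0.20, -0.45 and -0.36), and Gart was at 0.39 (limma adjusted P = 0.453). With all libraries and the library number as a covariate the log2 fold changes were the same, Prps1, Adsl and Paics were higher (5.17% of tested genes) and Impdh1 lower (49.4%). With replicate numbers as a block, Prps1 and Adsl were higher (6.29%) and Impdh1 lower (56.7%). With median-of-ratios scaling of the same libraries, an added setting, 9 of 10 were called higher (28% of tested genes), and Impdh1 was at -0.20 (limma adjusted P = 0.678). MP tumors 1, 2 and 3 held the lowest tumor values of Impdh1, between 8.30 and 46.3 TPM, against 49.4 TPM or more in MP tumors 4 to 10. The same held for Pfas (9.53 to 11.9 TPM, against 13.6 TPM or more), Atic (14.3 to 55.3 TPM, against 56.5 TPM or more) and Gart (54.2 to 139.7 TPM, against 159.7 TPM or more). Prps1, Paics and Adsl showed no such order, and Paics and Adsl were highest in MP tumors 1 and 3. These orders are of TPM as deposited. After median-of-ratios scaling Gart was highest in MP tumor 3, at 264 TPM. Impdh1 in MP tumor 1, at 72.3 TPM, was then above MP tumors 4, 5 and 9, at 52.3, 51.3 and 41.5 TPM. On that scale MP tumors 1 to 3 held the 3 highest tumor values of Prps1, Paics and Adsl. Gene lengths were 1993 bases for Prps1, 3077 for Impdh2, 3139 for Paics, 3294 for Impdh1, 3992 for Gart, 4421 for Ppat, 5635 for Adsl, 7933 for Pfas, 7985 for Atic and 8105 for Gmps. In this comparison Pfas, Atic, Gmps, Ppat and Impdh1 had negative log2 fold changes, Impdh1 the lowest, and Adsl had the highest. The part of library preparation and of gene length in this split was not tested.

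A ratio of 2 genes within a library does not depend on scaling between libraries, and 4 ratios were compared by exact permutation tests (2-sided, smallest possible P = 0.0035), with Benjamini-Hochberg adjustment over the 4. The balance of the IMP dehydrogenases moved toward Impdh2. Impdh2 stood at 1.69, 1.57 and 1.24 times Impdh1 in the WT ovaries, and between 2.12 times in MP tumor 6 and 14.8 times in MP tumor 2. The WT ovaries had a log2 ratio of 0.57 ± 0.23 (SD, n = 3) and the MP tumors 2.20 ± 0.96 (SD, n = 10). They differed by 1.62, higher in 10 of 10 tumors (exact permutation P = 0.0140, adjusted P = 0.0280). The balance of the PRPP synthetases moved toward Prps1. Prps2, its paralog on chromosome X, was at 94.9, 94.0 and 82.7 TPM in the WT ovaries and did not pass the test on its own, its log2 fold change being -0.33 (limma adjusted P = 0.643). Prps2 was 1.51, 1.26 and 1.40 times Prps1 in the WT ovaries, and between 0.166 times in MP tumor 2 and 1.06 times in the library labelled MP tumor 10. The difference in log2 ratio was -1.98, lower in 10 of 10 tumors, at the smallest P the test can give (exact permutation P = 0.0035, adjusted P = 0.0140). How many other gene pairs part the groups in this way was not counted. MP tumors 1, 2 and 3 had the 3 highest Impdh2 to Impdh1 ratios, at 8.29, 14.8 and 10.3. Their Prps2 to Prps1 ratios, at 0.199, 0.166 and 0.172, were the 3 lowest. Prps1 and Prps2 rows differ in length, 1993 against 3873 bases, while Impdh1 and Impdh2 are near each other at 3294 and 3077 bases. With any 1 WT ovary left out the smallest possible P was 0.0152, which on its own does not pass adjustment over the 4 unless other ratios are low as well. Prps2 to Prps1 was at that P each time, and neither ratio passed (exact permutation adjusted P between 0.0909 and 0.152 for Impdh2 to Impdh1, and 0.0606 for Prps2 to Prps1), where log2 differences were between 1.49 and 1.72 and between -2.05 and -1.92. With MP tumors 1 to 3 alone the exact permutation test cannot pass, its smallest P being 0.1. Without MP tumor 1 or MP tumor 3 the Impdh2 to Impdh1 ratio no longer passed (exact permutation adjusted P = 0.0545).

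Paics and Ppat lie head to head on chromosome 5, on opposite strands, and their spans overlap by 272 bases at the 5′ ends. Without strand, reads of the overlap, and those of the antisense gene within the span of Ppat, cannot be told apart from reads of these genes. Their levels did not keep a fixed ratio. Paics was between 4.49 and 6.90 times Ppat in WT ovaries and between 4.01 times in MP tumor 8 and 13.2 times in MP tumor 2. The groups overlapped, and the log2 difference of 0.28 did not pass (exact permutation P = 0.5, adjusted P = 0.667). MP tumors 1, 2 and 3 had the 3 highest ratios, between 10.9 and 13.2. Gmps, the last step to GMP, and Adss, which takes IMP toward AMP, had a log2 ratio of -0.90 ± 0.11 (SD, n = 3) in the controls, against -0.83 ± 0.61 (SD, n = 10) for the tumors. The gap of 0.07 did not pass (exact permutation P = 0.860, adjusted P = 0.860), and against MP tumors 1 to 3 alone it was -0.61.

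**Figure D4:**
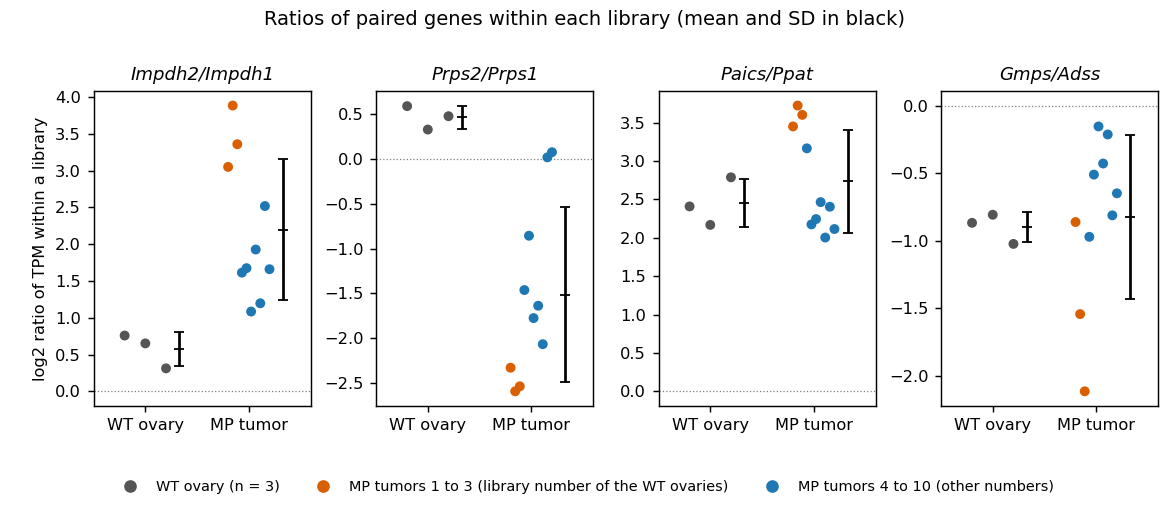
log2 ratio of TPM of 2 genes within each library, with 1 point per library and the group mean and SD in black; the dotted line marks equal levels. All MP tumors lie above the WT ovaries for Impdh2/Impdh1 and below them for Prps2/Prps1, and the groups overlap for Paics/Ppat and Gmps/Adss.

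The start regions of the genes were searched for the E-box that MYC and its partner MAX are known to bind, because the tumors carried a MYC transposon. RefSeq windows (GRCm38.p6) from 250 bases before to 50 bases after a gene's start were at hand for 9 of the 10 genes, with 2 starts for Impdh1. The letters CACGTG, which read the same on both strands, occurred in 3 of these 10 windows and in 7.15% of all 32851 windows. Each is shown with 12 bases on either side on the gene's own strand, the E-box in capitals.
Paics: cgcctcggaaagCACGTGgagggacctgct
Impdh2: gagctcgataagCACGTGgttacccagctc
Atic: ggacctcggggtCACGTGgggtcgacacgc
The Paics site (chr5:76951087-76951116, plus strand) had its E-box from 203 to 198 bases before the start and lies within the span of Ppat on the other strand. The Impdh2 site (chr9:108560314-108560343, plus strand) had it from 110 to 105 bases before the RefSeq start, inside the gene span of the GENCODE M21 model. The Atic site (chr1:71557137-71557166, plus strand) had it from 7 to 2 bases before the start. Of the genes with these letters, Paics and Impdh2 had every tumor above every ovary in TPM, as did Prps1 and Adsl without them. RNA of mouse Myc was between 125.5 and 129 TPM in WT ovaries and between 7.09 and 419 TPM in MP tumors, lowest in MP tumor 2 and at most 24.7 TPM in MP tumors 1 to 3. The transposon's own RNA was not analysed here.

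Of 11 formyl folate genes, which feed the pathway with formyl groups, 9 were tested, 2 rose and 1 fell, beside 2.51% and 14.3% of all tested genes. Both rises were lost when any 1 WT ovary was left out. Shmt1, a serine hydroxymethyltransferase of the cytosol, went from between 23.2 and 32.9 TPM in WT ovaries to between 51.5 and 395 TPM in MP tumors (log2 fold change 2.16, limma adjusted P = 0.0137). Mthfd1l, which makes formate in mitochondria, rose on the log2 scale by 1.45 (limma adjusted P = 0.0339). Aldh1l1, which oxidizes formyl folate and so removes it, was between 26.8 and 56.0 TPM in WT ovaries and at most 23.6 TPM in MP tumors, and fell by 3.87 on the log2 scale (limma adjusted P = 0.00386). Under median-of-ratios scaling 5 of the 9 rose and 1 fell, beside 7.37% and 11% of all tested genes.

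Purine salvage, which reuses bases, had 1 of 7 tested genes higher (2.51% of all tested genes) and 0 lower (14.3%). None of the 7 was lower at an unadjusted limma P under 0.05 or in limma-voom, which called 4 higher (10.9% of tested genes), and Dguok, a mitochondrial deoxyguanosine kinase, was called lower against MP tumors 1 to 3 alone (62.4%) and with the replicate block (56.7%). Aprt, which salvages adenine, went from between 110 and 115 TPM in WT ovaries to between 294 and 992 TPM in MP tumors, for 2.31 on the log2 scale (limma adjusted P = 0.000176), and under median-of-ratios scaling 3 of 7 rose, beside 7.37% of all tested genes. Hprt, which salvages hypoxanthine and guanine, was between 296 and 329 TPM in WT ovaries and between 226 and 1690 TPM in MP tumors, with a median of 417 TPM, and did not pass (limma adjusted P = 0.449). Hprt was called higher against MP tumors 1 to 3 alone (6.84% of tested genes), with the library number as covariate (5.17%) and with the replicate block (6.29%). Among the AMP branch and nucleotide kinases, 11 of 12 were tested, and Nme4, a mitochondrial nucleoside diphosphate kinase, rose, its log2 fold change being 2.54 (limma adjusted P = 0.00494). Ak1, an adenylate kinase of muscle and brain, fell by 2.80 (limma adjusted P = 0.0310), a call lost with any 1 WT ovary left out, with a pseudocount of 0.1, with median-of-ratios scaling and with the replicate block. Over all tested genes 2.51% were called higher and 14.3% lower. With median-of-ratios scaling 4 of the 11 rose and 0 fell, where 7.37% and 11% of all tested genes did. Of the other PRPP synthetase genes and their partners, 3 of 4 were tested and 0 passed in limma, in limma-voom or at an unadjusted P under 0.05. Of all tested genes, limma-voom called 10.9% higher and 23.4% lower, and unadjusted limma P under 0.05 gave 5.63% and 27.4%. Prps2 and Prpsap1 were called lower against MP tumors 1 to 3 alone (62.4% of tested genes), and Prpsap1 with the covariate (49.4%). Prpsap2, a PRPP synthetase-associated protein, had the smallest adjusted P, its log2 fold change being -0.42 (limma adjusted P = 0.451). Of 14 genes of purine breakdown and interconversion, 10 were tested and 0 passed in limma. At an unadjusted limma P under 0.05, 0 were higher or lower, beside 5.63% and 27.4% of tested genes. In limma-voom 1 was lower (23.4%). Against MP tumors 1 to 3 alone 5 of the 10 were lower (62.4% of tested genes), with the covariate 4 (49.4%) and with the replicate block 5 (56.7%). The one with the smallest adjusted P, Xdh, which makes uric acid, was at -1.80 on the log2 scale (limma adjusted P = 0.178). The median log2 fold change was 0.78 for the formyl folate genes, 0.51 for salvage, 0.77 for the AMP branch and kinases and -0.30 for breakdown, beside -0.58 over all tested genes.

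Proliferation markers rose in 4 of 8 cases (Birc5, Tk1, Ccna2 and Ccnb1), beside 2.51% of all tested genes. With WT ovary 1, 2 or 3 left out, 1 of 8 rose, Tk1, beside 0.479%, 0.638% and 0.387% of tested genes. The 8 markers summed to between 281 and 494 TPM in WT ovaries and between 348 and 1389 TPM in MP tumors. MP tumors 1 to 3 alone gave 4 of 8 higher (6.84% of tested genes) and Mki67 lower (62.4%). With median-of-ratios scaling 7 of the 8 rose (7.37% of tested genes), as did 7 with quantile normalization (11%), with the length trend removed (10.4%) and in limma-voom (10.9%). Oocyte markers fell in 6 of 7 cases, beside 14.3% of all tested genes. Immune markers fell in 0 of 5, with 3 lower at an unadjusted limma P under 0.05 (27.4%) and 2 in limma-voom (23.4%). They fell in 4 of the 4 tested against MP tumors 1 to 3 alone (62.4%), in 4 of 5 with the library number as a covariate (49.4%) and in 5 of 5 with the replicate block (56.7%). Of 7 stromal and endothelial markers 1 fell, Pdgfra, which is the share of all tested genes called lower (14.3%). However, 6 of the 7 were lower at an unadjusted limma P under 0.05 (27.4% of tested genes) and in limma-voom (23.4%), all 7 fell against MP tumors 1 to 3 alone (62.4%), and their median log2 fold change was -2.87. The part of cell division and of tissue make-up in the purine values was not tested.

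Over the 13 libraries, the genes whose levels ran closest to the mean profile of the 10 (after median-of-ratios scaling, by the root mean square difference of centred log2(TPM + 1)) were Ddx18 (0.18), Pus1 (0.19), G3bp1 (0.20), Kti12 (0.20) and Ruvbl1 (0.20). The median over all other tested genes was 1.07. The named genes were picked as the nearest, so their lying below that median follows from the choice. Among the 10 themselves, Ppat (0.24), Gmps (0.30) and Gart (0.31) ran closest to their common mean, and Impdh1 (0.78) and Adsl (0.66) farthest from it. Each of the 10 enters that mean, yet none lay as near to it as the genes picked as nearest. Ddx18, an RNA helicase, was between 46.8 and 58.7 TPM in WT ovaries and between 38.3 and 151 TPM in MP tumors.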

How the data were processed

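RNA-seq libraries of 10 MP tumors and 3 WT ovaries were used. The authors deposited TPM per gene and library, with gene lengths, and replicates were not pooled. Per the labels' processing notes, FastQC 0.11.5, Trimmomatic 0.36, STAR 2.5.3a and featureCounts 1.6.3 were used with mm10 (GRCm38), while the labels' protocol names a human build, HTSeq and RPKM; the table holds mouse genes and TPM summing to 1000000. Library reads were polyA selected and 76 bp long. Columns were matched to samples by the label's description, and 0 columns were left unused.

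TPM multiplied by gene length came out as whole multiples of 1 step for 100% of values above 0 (tolerance 0.02), taken as reads. Depth sets the precision: for a gene 1 kb long, a single read stood for as much as 0.790 TPM in the shallowest tumor. No counting intervals were made. Library pairs within a group differed by more than sampling noise (chi-square per degree of freedom of at least 30.3), and each library was counted as 1 sample; whether any came from the same RNA was not tested. That the libraries come from separate animals is not stated for each, and P values measure the spread between them.

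Genes that reached a TPM of 1 in 3 or more libraries were tested on log2(TPM + 1) with limma 3.58.1 (trended, robust) in R 4.3.3 over all 13 libraries without covariates, with Benjamini-Hochberg adjustment over all tested genes and a threshold of 0.05. Fold changes on this scale understate changes of low genes. Ratios within libraries were compared by exact permutation tests. Alternatives varied the pseudocount, filter, scaling, gene length trend, libraries, covariates, unit and limma options. The script was checked on simulated data. The members, lists and tests were chosen with earlier results of these data known. Named genes were all 10 members, the gene of each pathway list with the smallest adjusted P, genes of the ratios, Trp53, mouse Myc and the 5 genes nearest in profile; other genes named were chosen after their values were seen. Pnp, a symbol on more than 1 row, was left out of its list. Of the 10 members, 9 matched a promoter window, and Pfas did not. Replicate numbers 1 to 3 are shared by WT ovaries and MP tumors, and no label ties samples of the same number to each other. Python 3.11.15, pandas 2.3.3 and matplotlib 3.10.9 were used.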

Additional observations from a re-analysis of the deposited data

How the results depend on the processing

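Counts of genes called moved with the scaling and the libraries. Median-of-ratios scaling called 1274 genes and 7 of the 10 purine genes higher, quantile normalization 1904 and 9, removal of the length trend 1789 and 9, and limma-voom 1879 and 5, with 4042 genes lower. MP tumors 1 to 3 alone gave 1043 genes higher and 9504 lower, with 2 purine genes lower. The library number as a covariate gave 894 and 8534, with 1 purine gene lower. The replicate block gave 1087 and 9803, with 1 purine gene lower. No label ties samples of the same replicate number to each other, and correlations of same-numbered deviations were -0.049, 0.019 and -0.037, so the numbers were not taken to pair the samples. Settings chosen after seeing the data were MP tumors 1 to 3 with median-of-ratios scaling (4265 genes higher, 5632 lower, 9 purine genes higher) and all libraries without MP tumors 2 and 10 (680 higher, 5 purine genes). Leaving out 1 library gave 65 to 637 genes higher, 604 to 3238 lower, and 0 to 5 purine genes higher.

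Directions turned for Ppat (-0.20), Pfas (-0.78), Atic (-0.45) and Gmps (-0.36), each with the same value for MP tumors 1 to 3 alone, with the covariate and with the replicate block. Impdh1 became positive under median-of-ratios (0.48), quantile (0.21) and length (0.39) settings, limma-voom (0.068) and without MP tumors 2 and 10 (0.022), and ran from -0.40 to 0.093 (without MP tumor 2) with 1 library left out. For MP tumors 1 to 3 alone the log2 differences in ratio were 2.86 for Impdh2/Impdh1, -2.96 for Prps2/Prps1, -0.61 for Gmps/Adss and 1.14 for Paics/Ppat. With 1 library left out they ran from 1.44 to 1.75, from -2.16 to -1.86, from -0.00082 to 0.22 and from 0.14 to 0.45. The cause of these changes was not tested, apart from the fewer libraries. Depth limits the tumors most, with as few as 152 reads for Impdh1 in MP tumor 2.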
